A study of Rattus norvegicus with 16 samples.

Results

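The cholesterol efflux and liver X receptor (LXR) genes followed here are Nr1h3, Nr1h2, Abca1, Abcg1, Scarb1 and Stard3nl, taken as every array probe set whose annotation names 1 of them, by current or former symbol. The rule found 9 probe sets for 5 of the 6 genes among 15923 probe sets in all. Nr1h3 had 1, Nr1h2 had 2, Abcg1 had 3, Scarb1 had 2 and Stard3nl had 1. No probe set of the annotation used here names Abca1, so Abca1 has no values. A probe set shared by Cd36 and Cd36l1 was not counted.

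Isolated rat pancreatic islets had received an adenovirus encoding the nuclear receptor PPARγ or an empty (null) adenovirus, at a multiplicity of 50 for 32 h. They were then incubated for 16 h with 200 nM of the PPARγ agonist GW347845 or with 0.004% DMSO as vehicle. The 4 groups were PPARγ virus with compound (4 arrays), PPARγ virus with vehicle (4), null virus with compound (3) and null virus with vehicle (3). All groups carried an adenovirus, and no uninfected islets are among the samples. The strain and age of the rats, the species of the viral cDNA, the promoter that drives it, and whether replicates were separate islet preparations are unstated in the labels. P-values therefore measure only the spread between these arrays, which may be technical. A further array stood under both null virus labels of replicate 2 with the same value in 100% of probe sets, and was left out because its incubation is unknown.

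LXRα (Nr1h3) and LXRβ (Nr1h2) are receptors for oxysterols, the oxidised forms of cholesterol, and bind DNA as partners of RXR. They switch on genes that carry cholesterol out of the cell, among them those for the transporters ABCA1 and ABCG1. In macrophages, PPARγ raises Nr1h3 and through it these transporters. SR-BI (Scarb1) is the cell surface receptor for high density lipoprotein, and STARD3NL is a membrane protein of late endosomes, related to the cholesterol-binding protein STARD3. In mouse beta cells, loss of the efflux transporters raises islet cholesterol and impairs insulin secretion.

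The promoter windows of the 2 members with a call in the tests below, Nr1h3 and Stard3nl, are shown so that the letters a nuclear receptor could read are visible. The call of Nr1h3 is a description, since it read above the intensity limit for testing in PPARγ virus arrays alone. They run 5′ to 3′ from 250 bases before to 50 after the gene's start in RefSeq (build GRCr8), at chr3:97623180-97623479 on the minus strand for Nr1h3 and chr17:50278667-50278966 on the plus strand for Stard3nl. Capitals mark a nuclear receptor hexamer on either strand, AGGTCA or GGGTCA or AGTTCA or GGTTCA.
Nr1h3: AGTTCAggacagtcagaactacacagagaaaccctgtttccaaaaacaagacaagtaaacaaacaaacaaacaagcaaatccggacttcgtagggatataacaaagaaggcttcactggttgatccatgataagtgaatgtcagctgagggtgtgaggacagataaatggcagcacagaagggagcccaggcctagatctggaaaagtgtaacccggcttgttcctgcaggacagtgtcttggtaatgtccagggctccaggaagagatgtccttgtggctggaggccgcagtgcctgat
Stard3nl: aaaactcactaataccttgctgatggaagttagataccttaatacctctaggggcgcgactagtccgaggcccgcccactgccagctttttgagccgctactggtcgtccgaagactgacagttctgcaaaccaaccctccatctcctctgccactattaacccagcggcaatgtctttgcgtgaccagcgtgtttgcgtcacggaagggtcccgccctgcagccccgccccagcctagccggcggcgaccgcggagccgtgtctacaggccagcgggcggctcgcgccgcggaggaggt
The Nr1h3 window held 1 hexamer, AGTTCA, at its upstream end, and the Stard3nl window held 0. At least 1 hexamer lies in 44.4% of 33469 rat promoter windows of this length. A repeat of 2 AGGTCA hexamers 1 base apart (DR1, the type that PPAR binds) was in neither window and lies in 0.0538% of all windows, on either strand. A repeat 4 bases apart (DR4, the type that LXR binds) was in neither and lies in 0.00598%. Both repeats contain the hexamer and so overlap it wherever they occur. Such a match or its lack describes these letters alone.

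Pparg itself read 5510 ± 640 (SD, n = 4) with PPARγ virus and compound and 5590 ± 582 (SD, n = 4) with PPARγ virus and vehicle, against 35.8 ± 13.7 (SD, n = 3) with null virus and compound and 33.0 ± 5.74 (SD, n = 3) with null virus and vehicle. Values are array intensities on a linear scale, as the authors deposited them. The tissue carried its label: the summed intensity of 6 beta cell markers was 12708 to 17808 with PPARγ virus and compound, 13915 to 17110 with PPARγ virus and vehicle, 15768 to 16891 with null virus and compound, and 15188 to 20089 with null virus and vehicle. RNA integrity can be read from control probe sets at the 3′ and 5′ ends of a transcript: their intensity ratio (3′ over 5′) was 8.36 to 18.9 for Gapdh and 7.58 to 14.9 for beta-actin. The 3′ end thus read many times brighter than the 5′ end in every array, and its part in the values of single probe sets was not tested. The ratio exceeded the vehicle partner's in 7 of 7 compound arrays for beta-actin and in 4 of 7 for Gapdh, and its part in the compound effects below was not tested.

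Changes are log2 differences of log2(intensity + 4.6), with SE and a p from limma adjusted over all 10078 probe sets tested; they understate the change of dim genes. A probe set was tested if it read above 39.3 in at least 4 arrays. Of the 9 member probe sets, 6 were tested; both Nr1h2 probe sets and 1 of Scarb1 were too dim. Arrays of 1 virus that carry the same replicate number deviated together, so values from a fit with the number as a random block within each virus stand beside those whose call they change.

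Nr1h3, the LXRα gene, was higher in every PPARγ virus array than in any null virus array. It read 58.5, 61.1, 48.1 and 49.6 with PPARγ virus and compound, and 37.3, 44.4, 31.7 and 44.0 with PPARγ virus and vehicle. It read 24.5, 30.2 and 21.7 with null virus and compound, and 26.0, 21.8 and 24.4 with null virus and vehicle. The 4 arrays with both receptor and agonist were the 4 highest of all 14, those with the receptor alone came next, and the null virus arrays with and without compound overlapped. How many tested probe sets show this order was not counted, and limma did not call the compound effect with the PPARγ virus. A lack of overlap between the 8 PPARγ virus arrays and the 6 null virus arrays was found for 0.992% of tested probe sets, and for 0.546% with the PPARγ virus higher. Nr1h3 passed the intensity limit through the groups where it is high: 4 of 4 arrays of PPARγ virus with compound and 2 of 4 with vehicle were above 39.3, against 0 of 3 and 0 of 3 with the null virus.

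Averaged over both incubations, Nr1h3 rose 1.73-fold with the PPARγ virus (log2 change 0.79 ± 0.12 SE, limma adjusted p = 0.00393). Because Nr1h3 reached the limit for testing through PPARγ virus arrays alone, its p-values here and below are a description. The size depends on the pseudocount, at 0.87 with 1 and 0.47 with 32 in place of 4.6, and the call held with both. In the same contrast 1.53% of tested probe sets were called, 1.07% as rises. The call ended with the replicate block (adjusted p = 0.0678), a fit in which the share called was 0.496%. By exact permutation of the virus label within each incubation the two-sided p was 0.000816, and over the 7 means of same-numbered arrays the exact permutation p was 0.0286, each unadjusted and the smallest the design allows. Where the viruses do not overlap, no rearrangement can give a larger rise, so these p-values add little to the lack of overlap.

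By incubation, the virus effect on Nr1h3 was a 1.96-fold rise in compound (0.97 ± 0.18, limma adjusted p = 0.0150) and a change of 0.61 ± 0.18 in vehicle, which did not pass (adjusted p = 0.533). The share of probe sets called was 0.705% in compound and 0.0397% in vehicle. The difference between the 2 virus effects was 0.37 with a 95% confidence interval of -0.17 to 0.90 (interaction, limma adjusted p = 1.00), so an unequal response in the 2 incubations was not shown. In compound the call ended without PPARγ virus compound replicate 1 (adjusted p = 0.0603), null virus compound replicate 1 (0.0732) or null virus compound replicate 4 (0.105), and in a fit on these 2 groups alone (0.0686). Receptor with agonist, set against null virus with vehicle, gave a 2.05-fold rise (1.04 ± 0.18, adjusted p = 0.00927; 0.665% of probe sets called), which ended without null virus vehicle replicate 3 (0.0593).

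With the PPARγ virus, Nr1h3 read higher in GW347845 than in vehicle in 4 of 4 pairs of the same replicate number, by 0.16 to 0.59 and by 0.43 ± 0.16 on average, yet limma did not call it (adjusted p = 1.00, and 0.243 with the replicate block). Higher values in 4 of 4 pairs were found for 7.76% of tested probe sets. With the null virus the compound gave 0.06 ± 0.19 (adjusted p = 1.00, 95% confidence interval -0.34 to 0.46), with 1 of 3 pairs higher.

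**Figure D1:**
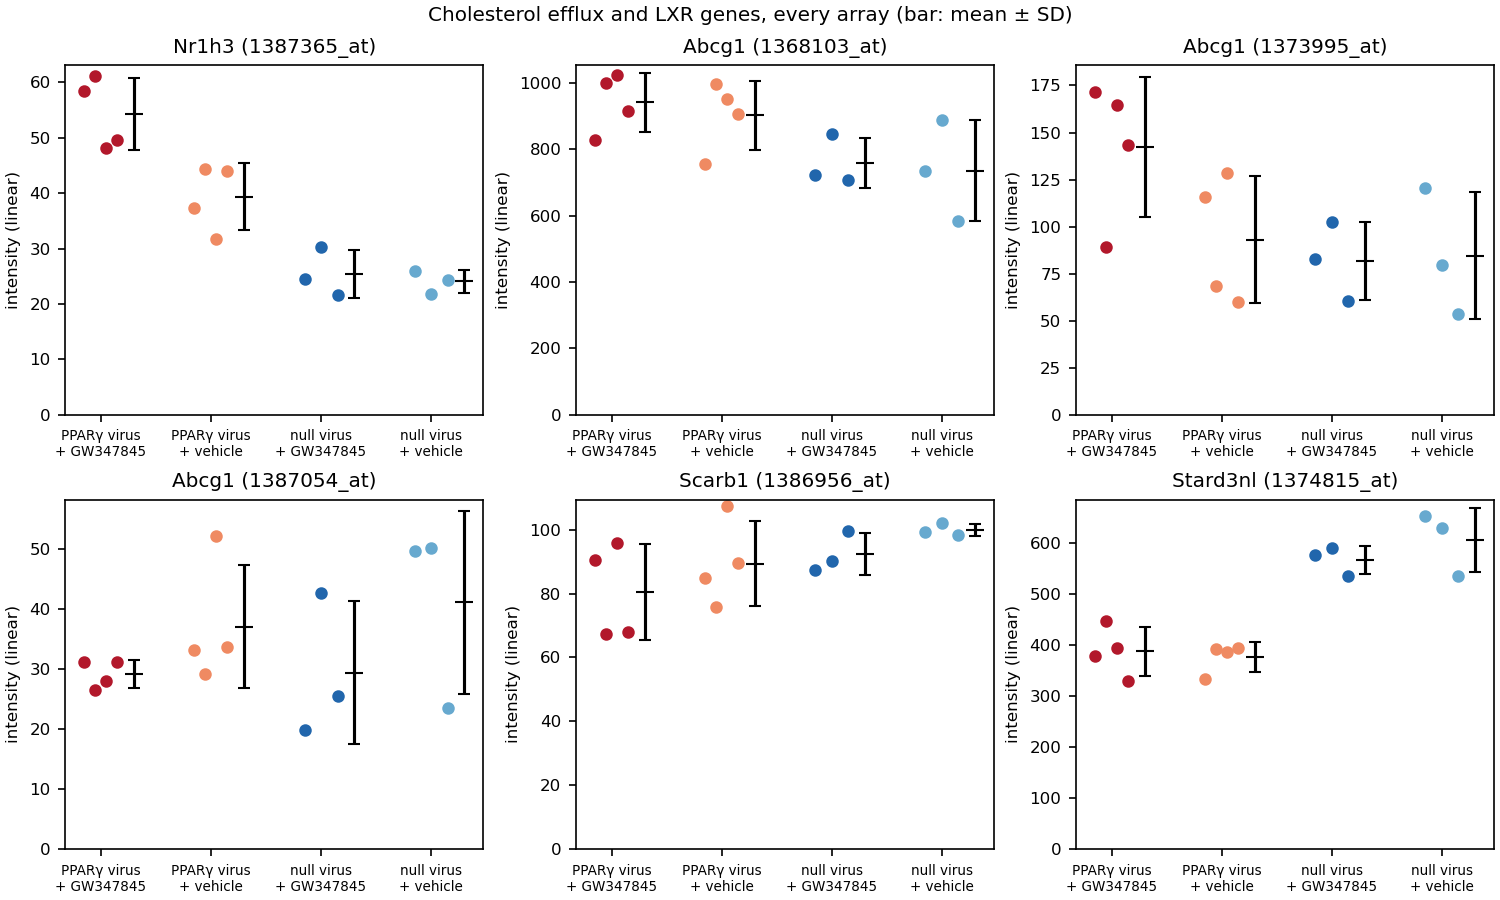
Intensity on a linear scale (vertical axis) of the 6 tested probe sets in each of the 14 arrays, by group; points are arrays and black bars are the mean ± SD (n = 4, 4, 3 and 3). Nr1h3 lies at 31.7 to 61.1 in PPARγ virus arrays, against 21.7 to 30.2 in null virus arrays, and Stard3nl at 329.6 to 447.4, against 535.2 to 654.0.

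Nr1h2, the LXRβ gene, was dim in every array. Its brighter probe set (1370208_at) read 18.4 to 30.1 with PPARγ virus and compound and 22.5 to 33.0 with PPARγ virus and vehicle, against 24.7 to 30.4 with null virus and compound and 20 to 28.9 with null virus and vehicle. All 4 groups overlapped, and none of the 14 arrays exceeded the limit for testing. In a fit without a filter its average virus effect was 0.00 ± 0.13 (95% confidence interval -0.28 to 0.29, adjusted p = 0.994), which does not reach the change seen for Nr1h3. The other Nr1h2 probe set (1389854_at) read 2.3 to 9.7 over PPARγ virus arrays and 2.9 to 9.5 over null virus arrays, and the 2 Nr1h2 probe sets were nearly unrelated across arrays (Pearson r = 0.12, Spearman rho = 0.27, 14 arrays).

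Abcg1, which moves cholesterol to high density lipoprotein and lies downstream of LXR, had 3 probe sets, which did not agree. None was called in any contrast, with or without the replicate block within each virus, although 1373995_at passed in 3 contrasts with a block over all groups. The brightest (1368103_at) read 829.8, 1000.8, 1024.9 and 915.7 with PPARγ virus and compound, and 757.5, 997.4, 952.2 and 905.7 with PPARγ virus and vehicle. It read 722.6, 847.4 and 708.2 with null virus and compound, and 734.3, 889.7 and 585.1 with null virus and vehicle. The PPARγ virus arrays were mostly the higher ones, but the groups overlapped. The average virus effect was 0.31 ± 0.10 (limma adjusted p = 0.178; exact permutation p = 0.0114, unadjusted, and 0.114 over same-numbered means), nearly equal in compound (0.31) and in vehicle (0.31).

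The middle Abcg1 probe set (1373995_at) read 171.4, 89.2, 164.4 and 143.4 with PPARγ virus and compound, and 115.7, 68.4, 128.3 and 60 with PPARγ virus and vehicle. It read 82.8, 102.2 and 60.7 with null virus and compound, and 120.3, 79.7 and 53.4 with null virus and vehicle. Within the PPARγ virus each compound array was above its vehicle partner, as in 7.76% of tested probe sets, while the groups overlapped as wholes. The compound effect there was 0.61 ± 0.29 (limma adjusted p = 1.00; 0.61 ± 0.19 and adjusted p = 0.279 with the replicate block), and with the null virus it was 0.00 ± 0.33 (adjusted p = 1.00). The difference of the 2 compound effects was 0.61, with a 95% confidence interval of -0.32 to 1.55. With a fixed block of replicate number over all groups, which assumes a pairing across viruses that the arrays bore out for some numbers only, this probe set passed for the average virus effect (0.60, limma adjusted p = 0.0270), in compound (0.91, 0.0245) and combined (0.91, 0.0277).

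The dimmest Abcg1 probe set (1387054_at) exceeded 39.3 in 0 of 4 arrays of PPARγ virus with compound and 1 of 4 with vehicle, against 1 of 3 of null virus with compound and 2 of 3 with vehicle. Its compound effect under the PPARγ virus had the other sign, at -0.28 ± 0.26 (0 of 4 pairs higher, as for 10.2% of tested probe sets; adjusted p = 1.00). With the null virus the compound effect was also negative, at -0.42 ± 0.30 (1 of 3 pairs higher). The average virus effect was -0.025 ± 0.197 (limma adjusted p = 0.981). Across the 14 arrays the 3 probe sets correlated weakly with each other (Pearson r of 0.27 to 0.39), although 1368103_at and 1387054_at were annotated from the same expressed sequence tag. Which of them follows the Abcg1 transcript was not tested.

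**Figure D2:**
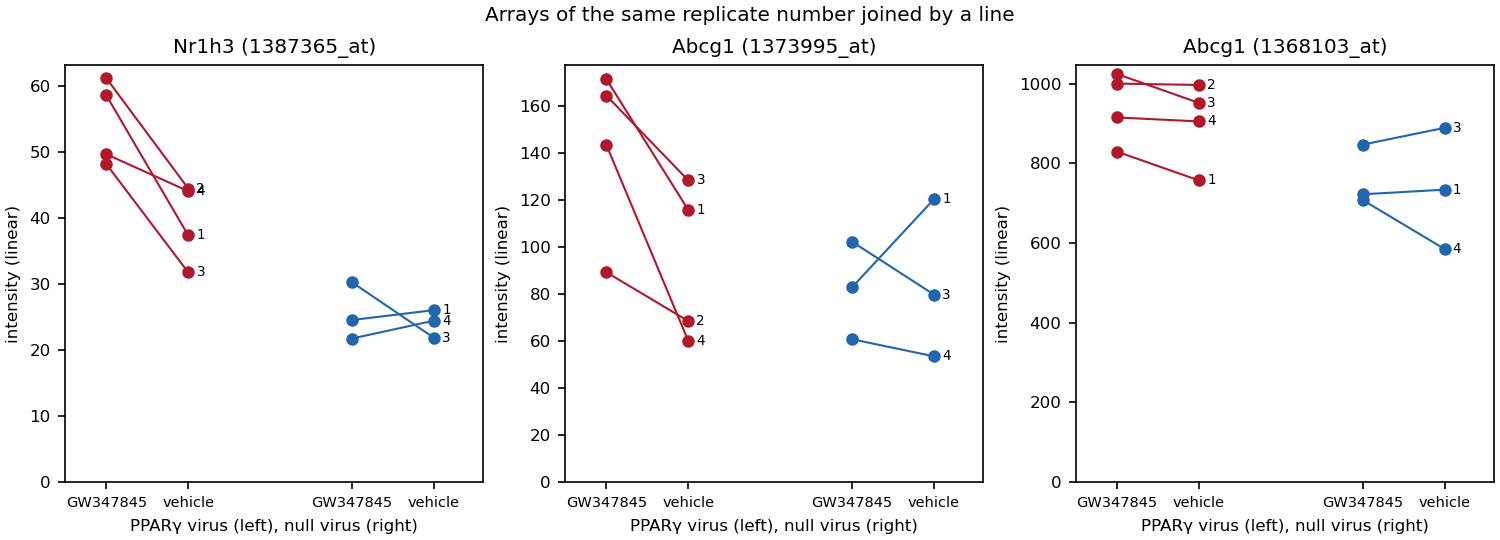
Intensity on a linear scale of Nr1h3 and of 2 Abcg1 probe sets, with arrays of 1 virus and replicate number (printed at the right end) joined from compound to vehicle; PPARγ virus is on the left of each panel in red and null virus on the right in blue. All 3 probe sets shown are higher with compound in 4 of 4 PPARγ virus pairs (7.76% of all tested), Abcg1 1368103_at by as little as 0.005 on the log2 scale, against 1 of 3, 2 of 3 and 1 of 3 null virus pairs; the Abcg1 probe set not shown, 1387054_at, is higher in 0 of 4.

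Scarb1, the receptor that exchanges cholesterol with high density lipoprotein, had 1 tested probe set (1386956_at). It read 90.5, 67.5, 96.0 and 68.0 with PPARγ virus and compound, and 84.8, 75.9, 107.4 and 89.6 with PPARγ virus and vehicle. It read 87.3, 90.2 and 99.7 with null virus and compound, and 99.3, 102.0 and 98.3 with null virus and vehicle. The PPARγ virus arrays were the more scattered and included both the highest and the lowest. The average virus effect was -0.18 ± 0.11 (limma adjusted p = 0.532, 95% confidence interval -0.41 to 0.04), and receptor with agonist against null virus with vehicle gave -0.31 ± 0.15 (adjusted p = 0.598). The other Scarb1 probe set (1367855_at) read 3.4 to 10.8 over PPARγ virus arrays and 4.4 to 9.4 over null virus arrays and was not tested.

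Stard3nl was the 1 member that fell. It read 379.3, 447.4, 395.0 and 329.6 with PPARγ virus and compound, and 334.0, 391.5, 386.7 and 394.2 with PPARγ virus and vehicle. It read 575.9, 590.1 and 536.2 with null virus and compound, and 654.0, 628.9 and 535.2 with null virus and vehicle. All 8 PPARγ virus arrays were below all 6 null virus arrays, which held for 0.447% of tested probe sets, and all 14 arrays were above the limit for testing. The left-out array of uncertain incubation, null virus under both of its labels, read 428.0, inside the PPARγ virus range, so the separation does not extend to it; for Nr1h3 the same array read 16.1, below every array used.

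Averaged over both incubations, Stard3nl fell by 0.61 ± 0.08 on the log2 scale, to 0.65 times the null virus level (limma adjusted p = 0.00167, and 0.0199 with the replicate block). Falls were called for 0.456% of tested probe sets, and for 0.0794% with the block. The exact permutation p was 0.000816 within incubations and 0.0286 over same-numbered means, each unadjusted and the smallest possible. Since the viruses do not overlap, no rearrangement can give a larger fall, and these p-values add little to that. The limma call of the average fall held whichever of the 14 arrays was left out, and with the doubtful array kept under either label (-0.55 and adjusted p = 0.00602 as vehicle, -0.56 and 0.00299 as compound).

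By incubation, the change was -0.55 ± 0.12 in compound (limma adjusted p = 0.0469, but 0.0625 with the replicate block, under which 0.724% of probe sets were called). In vehicle it was -0.68 ± 0.12, which did not pass (limma adjusted p = 0.0731, and 0.107 with the replicate block). That adjusted p ran from 0.0493 to 0.367 with 1 array left out, and was under 0.05 only without PPARγ virus compound replicate 2. It was 0.185 with the doubtful array kept as vehicle and 0.101 as compound. With the block over all groups, which assumes a pairing across viruses that the arrays bore out for some numbers only, it was 0.0169. The call in compound was marginal: leaving out 1 array ended it for 11 of the 14 arrays, with adjusted p up to 0.204. It also ended with quantile or median scaling, without the intensity trend, with the doubtful array kept under either label or both, and in a fit on these 2 groups alone (adjusted p from 0.055 to 0.19). Receptor with agonist against null virus with vehicle gave -0.64 ± 0.12 (adjusted p = 0.0176). That call ended without PPARγ virus compound replicate 1 (0.0590) or 4 (0.0594) or null virus vehicle replicate 1 (0.132) or 3 (0.0975), with the doubtful array kept as vehicle (0.101) or under both labels (0.124), with median centring (0.058), and in a fit on these 2 groups alone (0.13). GW347845 itself left Stard3nl at 0.04 ± 0.11 with the PPARγ virus (95% confidence interval -0.20 to 0.27) and at -0.09 ± 0.13 with the null virus, both at an adjusted p of 1.00. The interaction was 0.13 (95% confidence interval -0.23 to 0.48).

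**Figure D3:**
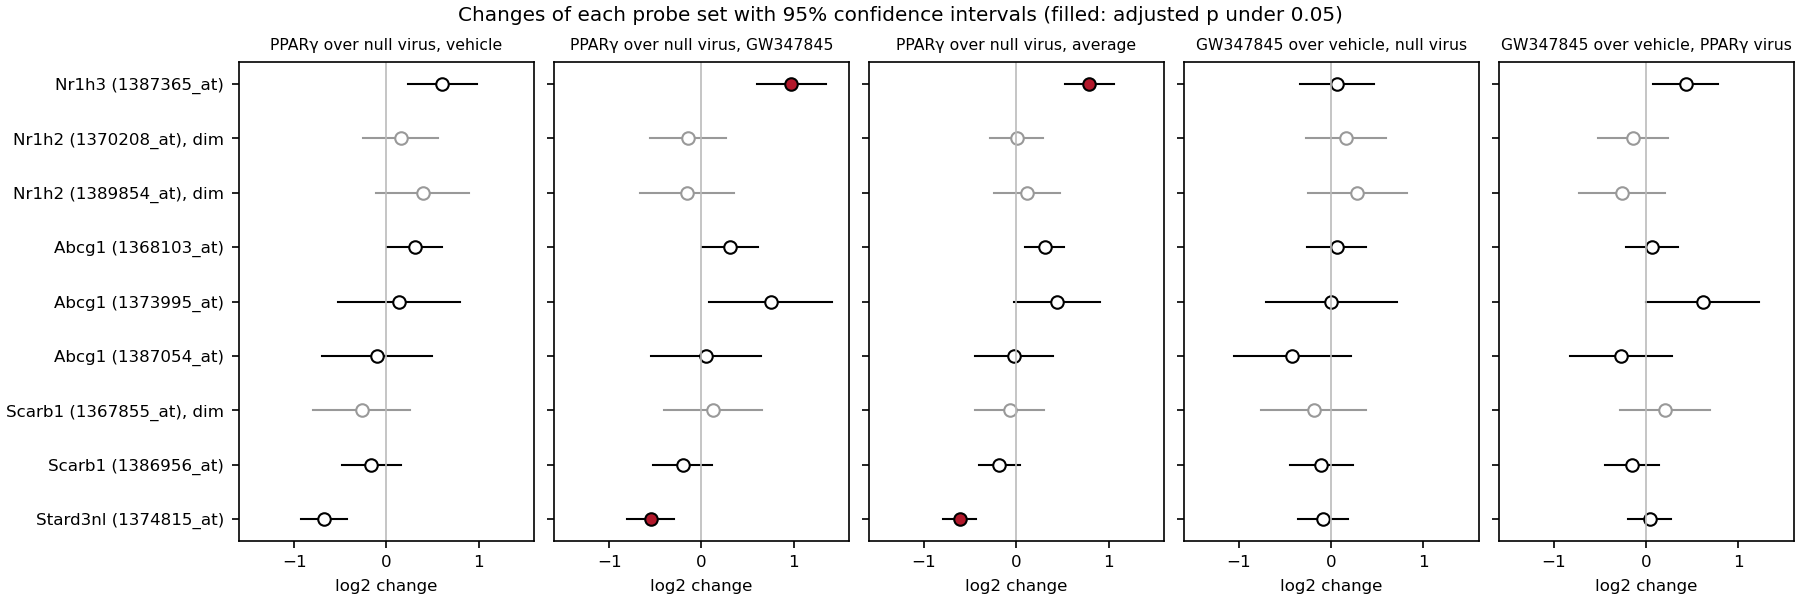
Log2 change (horizontal axis) of each of the 9 probe sets in 5 contrasts, with 95% confidence intervals; filled points have a limma adjusted p under 0.05, and grey points are probe sets too dim to be tested, from the fit without a filter. Nr1h3 (0.97 and 0.79) and Stard3nl (-0.55 and -0.61) are filled for the virus effect in compound and on average; no point is filled for either compound effect.

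Counted over contrasts, limma called 1 rise and 1 fall among the 6 tested probe sets for the virus effect in compound (0.635% of all tested probe sets called as rises and 0.0695% as falls), on average (1.07% and 0.456%) and in the combined contrast (0.605% and 0.0595%). With the replicate block, 1 rise and 0 falls were left in compound, where 0.724% of all tested probe sets were called in either direction. On average 0 rises and 1 fall were left, against 0.496% of all called in either direction and 0.0794% as falls. The combined contrast kept both calls with the block (limma adjusted p = 0.0185 for Nr1h3 and 0.022 for Stard3nl). For the virus effect in vehicle limma called 0 of 6 (3 at an unadjusted p under 0.05, against 4.43% of all). For the compound with the PPARγ virus it called 0 of 6, against 0.0595% of all (0.417% with the replicate block). At an unadjusted p under 0.05, 1 of 6 passed against 2.93% of all, and 2 of 6 against 9.25% with the block. For the compound with the null virus it called 0 of 6, and 0 of 6 passed unadjusted, against 0.0% and 0.943% of all. These counts are a description, since Nr1h3 reached the limit for testing through PPARγ virus arrays alone. The contrasts in compound and in vehicle share no arrays, while the combined contrast shares arrays with both.

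Genes whose arrays ran most like each member were picked by Pearson r over the 14 arrays, as a description. Same-numbered arrays of 1 virus deviated together, and Nr1h3 and Stard3nl separate by virus, so each r is followed in parentheses by the r of deviations from the group means. For Nr1h3 the highest were the triglyceride synthesis gene Dgat2 at 0.95 (0.44), Cluh at 0.95 (0.56), the lipolysis inhibitor gene G0s2 at 0.93 (0.48), Tinagl1 at 0.93 (0.57) and Tmem140 at 0.92 (0.29). The lowest were Marcks at -0.92 (-0.80), Calml4 at -0.92 (-0.66) and Actr10 at -0.91 (-0.49). Within groups the r was smaller for all 8, least so for Marcks.

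For Abcg1 (1368103_at) the gene closest to it was Nr1d2, which encodes the clock repressor REV-ERBβ, at 0.97 (0.95), with a Spearman rho of 0.97 and an r of 0.94 without the 2 arrays farthest from the Abcg1 median. Chd8 at 0.90 (0.84), the CLOCK-interacting gene Cipc at 0.89 (0.86), Mideas at 0.89 (0.86) and Tent4b at 0.88 (0.78) followed. Mgp at -0.93 (-0.90), Ifi27 at -0.92 (-0.89) and Pla1a at -0.91 (-0.90) were lowest, so for all 8 the likeness held within groups too.

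For Scarb1 the highest were Rnf34 at 0.91 (0.88), Akap7 at 0.90 (0.86), Btbd1 at 0.89 (0.90), Adam22 at 0.87 (0.86) and Myo1d at 0.86 (0.88), and the lowest Lrrc59 at -0.89 (-0.92), Hopx at -0.87 (-0.88) and Eif4ebp1 at -0.87 (-0.82). For Stard3nl the highest were the respiratory complex I gene Ndufa7 at 0.89 (0.34), Tgfbr3 at 0.87 (0.62), Poldip2 at 0.86 (0.37), Cyb5a at 0.86 (0.13) and Synpo2 at 0.86 (0.55). The lowest were Edf1 at -0.95 (-0.80), Pparg at -0.94 (-0.31) and the autophagy gene Wipi2 at -0.90 (-0.71). Nr1h3 stood at 0.87 (0.13) with Pparg.

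**Figure D4:**
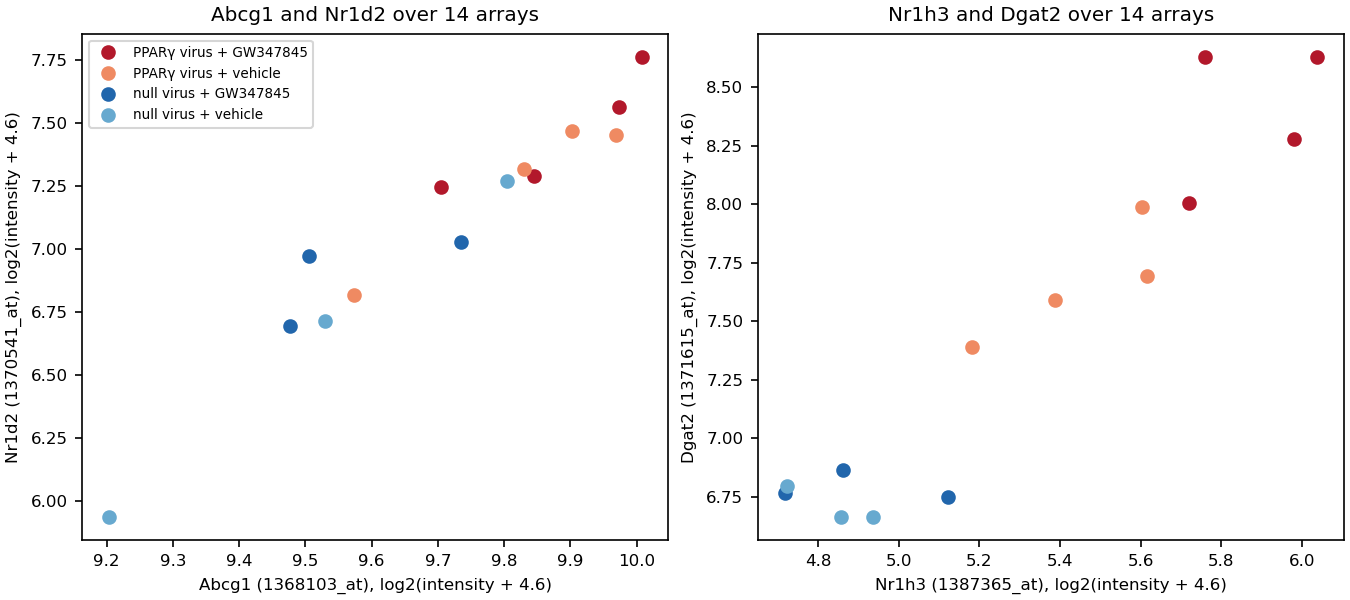
Log2(intensity + 4.6) of Abcg1 against Nr1d2 (left) and of Nr1h3 against Dgat2 (right) in 14 arrays, coloured by group. The Abcg1 arrays of all groups lie along 1 line (r = 0.97), while the Nr1h3 arrays (r = 0.95) step up by group.

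Few other genes around the LXR axis passed the test. In each list a gene stands for its brightest probe set. For the average virus effect, 12% of all tested probe sets had an unadjusted p under 0.05 and 46.3% had a change above 0, and the counts of each list stand against these shares. Among known LXR targets 11 of 20 genes were tested and limma called 0 for the average virus effect (2 at an unadjusted p under 0.05). The median change was -0.07 against -0.01 over all tested probe sets, and 4 of 11 were above 0. The 1 gene of the list called in any contrast was the lipoprotein lipase gene Lpl, also a PPARγ target. It read 524 ± 193 with PPARγ virus and compound (SD, n = 4) and 137 ± 17.3 with null virus and vehicle (SD, n = 3), a combined change of 1.83 ± 0.34 (limma adjusted p = 0.0177). That call ended without PPARγ virus compound replicate 1 (0.0616) or 3 (0.0547), or without null virus vehicle replicate 1 (0.064), 3 (0.0912) or 4 (0.107). Its average virus effect was 1.01 ± 0.24 (adjusted p = 0.0509), and its compound effect with the PPARγ virus, 1.15 ± 0.31, passed with the replicate block (adjusted p = 0.0182) but not without it (0.793).

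LXR partners and coregulators had 10 of 17 genes tested and 0 called for the average virus effect (1 at an unadjusted p under 0.05). The corepressor gene Ncor1 stood at 0.25 ± 0.08 (adjusted p = 0.205), the coactivator subunit gene Med1 at -0.20 ± 0.12, the coactivator gene Crebbp at -0.26 ± 0.15 and the corepressor subunit gene Tbl1xr1 at 0.18 ± 0.11. Genes of efflux acceptors and lipoprotein remodelling had 2 of 12 tested, the caveolin gene Cav1 (0.50 ± 0.24, adjusted p = 0.426) and the apolipoprotein gene Apoe (-0.17 ± 0.14). Oxysterol genes had 2 of 8 tested, the sterol 27-hydroxylase gene Cyp27a1 (-0.34 ± 0.15, adjusted p = 0.383) and Hsd3b7 (-0.20 ± 0.12). None of these 4 was called in any contrast.

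Genes of intracellular cholesterol transport and storage had 15 of 29 tested, a median of 0.16 for the average virus effect and 12 of 15 above 0, with 0 called (2 at an unadjusted p under 0.05). Star, which brings cholesterol to the inner mitochondrial membrane, read 72.7 ± 57.5 and 31.5 ± 18.8 (SD, n = 4 each) with the PPARγ virus in compound and in vehicle, against 11.7 ± 10.1 and 8.23 ± 3.52 (SD, n = 3 each) with the null virus. Its average virus effect of 1.73 ± 0.42 did not pass (adjusted p = 0.0552, and 0.222 with the replicate block). Star reached the limit for testing through PPARγ virus arrays alone, so these p-values are a description. The cholesterol esterification gene Soat1 stood at 0.50 ± 0.15 (adjusted p = 0.129), Osbpl2 at 0.16 ± 0.09 and Tspo at 0.26 ± 0.16. Genes of cholesterol synthesis and LDL uptake had 22 of 27 tested, a median of 0.09, 18 of 22 above 0 and 0 called (5 at an unadjusted p under 0.05). There Insig1 stood at 0.40 ± 0.14 (adjusted p = 0.224), Dhcr7 at 0.25 ± 0.10, Mvd at 0.39 ± 0.16 and Cyp51 at -0.15 ± 0.07.

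Beside these, 10 of the 18 tested PPARγ target and adipocyte lipid genes rose in the average virus effect (6 with the replicate block), with a median of 0.63. Of all tested probe sets, 1.07% were called as rises, and 0.496% in either direction with the block. The 10 were Fabp4, Cd36, Angptl4, Plin2, G0s2, Gpd1, Acsl1, Aqp7, Dgat2 and Pnpla2. With the block the call ended for Cd36 (limma adjusted p = 0.246), Acsl1 (0.0922), Aqp7 (0.177) and Pnpla2 (0.348). Lpl passed in the combined contrast and Pdk4 for the virus effect in compound. When 1 array was left out, the call held in 2 of 14 fits for Pnpla2, in 3 of the 10 that tested it for Cd36, in 11 of 14 for Aqp7 and in 3 of 14 for Pdk4, and in 14 of 14 for each of the others of the 10. Cd36 reached the limit for testing through the PPARγ virus arrays with compound alone, and Aqp7 through PPARγ virus arrays alone. Their p-values are therefore a description. The list was drawn up with results of these data known, so its direction is no independent evidence.

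**Figure D5:**
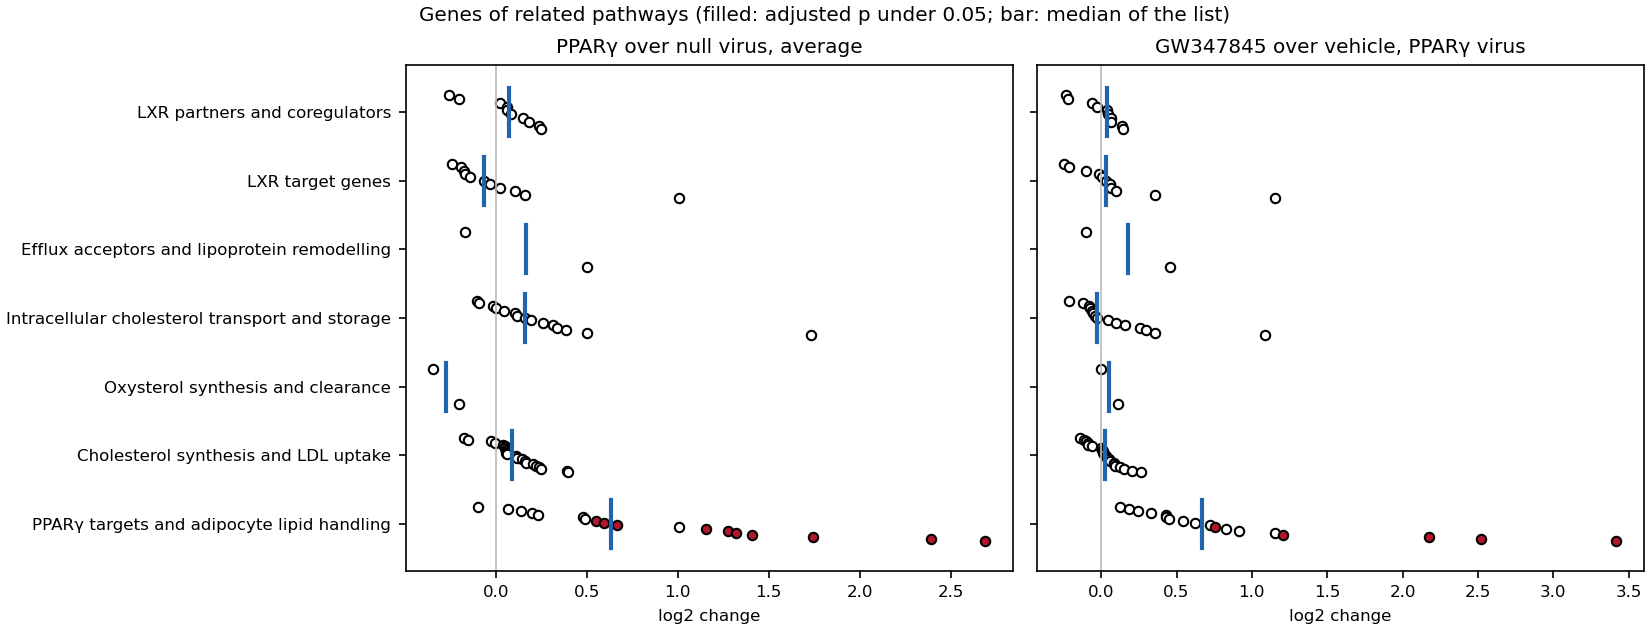
Log2 change (horizontal axis) of each tested gene of 7 lists for the average virus effect (left) and for GW347845 with the PPARγ virus (right); filled points have a limma adjusted p under 0.05 and blue bars are list medians. Filled points lie only in the PPARγ target list, where 10 of 18 are filled on the left and 5 of 18 on the right.

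Nr1h3, Abcg1 and Abca1 are also strongly expressed in macrophages, and fewer cells of a type cannot be told apart from less RNA per cell in islets measured whole. Of 17 macrophage and leukocyte markers 14 had a probe set, 10 were tested and limma called 0 in any contrast. At most 1.53% of all tested probe sets were called in a contrast, so this count says little about macrophage content. Their summed intensity was 826 to 1227 with PPARγ virus and compound and 809 to 1434 with PPARγ virus and vehicle, against 710 to 1151 with null virus and compound and 846 to 1231 with null virus and vehicle. None was at 0 in all arrays, and 3 stayed below 39.3 in every array. The groups overlapped in this sum, and its median marker change in the average virus effect was -0.01.

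Single genes among the markers of other cells were called, where 1.53% of all tested probe sets were called for the average virus effect. The duct keratin gene Krt19 rose in the average virus effect (1.08 ± 0.19, limma adjusted p = 0.00863, and 0.0361 with the replicate block), the 1 of 6 tested duct genes called. The beta cell factor gene Pdx1 fell by 0.52 (adjusted p = 0.0313, but 0.142 with the block), the 1 of 6 tested beta cell genes called. List medians were 0.097 for duct and -0.05 for beta cell genes, against -0.014 over all tested probe sets. The summed duct intensity was 6168 to 6962 with PPARγ virus and compound and 6626 to 7035 with PPARγ virus and vehicle. With the null virus it was 5988 to 6775 in compound and 5852 to 7207 in vehicle, so the groups overlapped. The brightest gene of this sum was Epcam, and how far the sum follows duct cells was not tested. Summed over 5 other islet hormone genes, of which limma called 0, intensity ran from 498 to 8968 with PPARγ virus and compound and from 998 to 9837 with PPARγ virus and vehicle, against 5442 to 7457 with null virus and compound and 4640 to 9224 with null virus and vehicle. The part of these in the changes of Nr1h3 and Stard3nl was not tested.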

How the data were processed

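Rat islet RNA was measured on an oligonucleotide array. The deposited values are intensity on a linear scale, 1 per probe set and array; the authors had scaled each array to a mean of 150.0 after 2% was trimmed at each end, as the values show. The summarising software is not given in the sources used here. Median intensity per array was 56.4 to 67.5, and precision is limited by how many arrays there are.

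Of 16 columns, 14 were used. Gene symbols come from the platform annotation, matched by gene identifier to current rat gene names: 12789 probe sets name 1 gene, 312 several and 2822 none. limma 3.58.1 in R 4.3.3 fitted a mean per group to log2(intensity + 4.6), where 4.6 is the 10th percentile of positive values, with empirical Bayes and an intensity trend. The 40th percentile of intensity, 39.3, was the limit for testing; 57 control probe sets were left out. Calls have a Benjamini-Hochberg adjusted p under 0.05. The model was tested on simulated data. Figures were drawn with matplotlib 3.10.9 in Python 3.11.15.

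Pairing by replicate number was checked through deviations of arrays from their group means. Vehicle and compound arrays of a number correlated at 0.57 to 0.70 with the PPARγ virus and at 0.45 to 0.48 with the null virus, in 7 of 7 pairs; across viruses, in vehicle, r was -0.12 to 0.43. The number was therefore used as a random block within each virus (consensus correlation 0.534).

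Members and gene lists were chosen with earlier results of these data known. The naming rule took all member probe sets, list genes past the threshold in any contrast or else up to 4 of smallest p, and for each member the 5 genes of highest and 3 of lowest r. Alternatives were other pseudocounts, filters and scalings, the duplicated array kept, arrays left out in turn, blocks and fits on the groups compared.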

Additional observations from a re-analysis of the deposited data

Results flagged for a closer look

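Of 18 groups of 4 arrays examined, one for each member probe set and PPARγ virus group, 2 held an array set apart from the rest, and chance alone sets one apart in about 1 in 20. In Stard3nl, PPARγ virus vehicle replicate 1 read 334.0, the lowest of its group, with the other 3 between 386.7 and 394.2 (gap over range 0.875). In the dim Scarb1 probe set 1367855_at, the same array read 7.2, the highest of its group, against 4.0 to 4.5 (0.844).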

How the results depend on the processing

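The average virus effect on Stard3nl stayed past the threshold in every alternative run, with log2 changes of -0.66 to -0.58 when 1 array was left out. For Nr1h3 it kept its direction in every alternative and was called in all but the random replicate block. These calls are a description, since Nr1h3 reached the limit for testing through PPARγ virus arrays alone. Its average virus effect was 0.87 with a pseudocount of 1 and 0.47 with 32, and 0.75 to 0.85 with 1 array left out. At the 60th percentile filter Nr1h3 was not tested. Counts of called probe sets moved more. With the random replicate block within each virus they were 50 on average for the virus (154 without), 42 for the compound with the PPARγ virus (6 without) and 2 for the interaction (0 without); the fixed block within each virus gave 40 and 5 for the last 2, and 0 for the compound with the null virus. A fixed replicate block over all groups, which assumes a pairing across viruses that the check did not bear out for each number, gave 34 for the virus in vehicle, 211 in compound, 414 on average, 14 for the compound with the PPARγ virus, 177 for the combined contrast and 3 for the interaction. Fits on the groups compared alone gave 1 call for the virus in vehicle, 43 in compound, 2 for the compound with the PPARγ virus and 42 combined. With 1 array left out, counts ran from 3 to 7 for the virus in vehicle, 31 to 71 in compound, 77 to 134 on average, 2 to 7 for the compound with the PPARγ virus and 39 to 71 combined; they stayed at 0 for the compound with the null virus and the interaction.

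No member's called change turned its sign. Changes near 0 did. Abcg1 1387054_at turned to 0.039 on average with the block over all groups, to -0.118 for the virus in compound with the duplicated array as compound or with all 16 columns, and to -0.02 for the interaction with it as compound. With that array as vehicle, the compound effect with the null virus was -0.004 for Abcg1 1368103_at, 0.031 for 1373995_at and 0.033 for Stard3nl. As compound it gave -0.071 for Nr1h3, and an interaction of -0.045 for 1368103_at. Abcg1 1373995_at had 0.001 with pseudocount 1 and 0.009 with median centring there, and the Scarb1 interaction was 0.002 with quantile normalization. With 1 array left out, the compound effect with the PPARγ virus ran from -0.017 to 0.124 for Abcg1 1368103_at and -0.034 to 0.111 for Stard3nl. With the null virus it ran from -0.094 to 0.206 for Abcg1 1368103_at, -0.275 to 0.278 for 1373995_at and -0.049 to 0.153 for Nr1h3. The interaction ran from -0.142 to 0.158 for Abcg1 1368103_at, -0.065 to 0.463 for 1387054_at and -0.127 to 0.046 for Scarb1. The virus effect ran from -0.139 to 0.414 for Abcg1 1373995_at in vehicle, and for 1387054_at from -0.162 to 0.086 in compound and -0.184 to 0.02 on average. The cause of these shifts was not tested.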

Other observations

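The array deposited under both null virus labels of replicate 2 was left out of the main fit because its incubation is unknown. Both labels give it the null virus, and it was kept only in alternative fits. It read 16.1 for Nr1h3, 868.9, 73.1 and 47.0 for the Abcg1 probe sets 1368103_at, 1373995_at and 1387054_at, 104.6 for Scarb1 (1386956_at) and 428.0 for Stard3nl.

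Markers of 3 other cell types were also summed. Of 9 endothelial genes 7 had a probe set and limma called 0 of the 5 tested; the sum was 600 to 779 with PPARγ virus and compound and 485 to 761 with PPARγ virus and vehicle, against 461 to 722 with null virus and compound and 483 to 691 with null virus and vehicle. Of 9 stromal genes all were tested and 0 called for the average virus effect, with sums of 1993 to 3609 and 2208 to 4031 with the PPARγ virus in compound and vehicle, against 1909 to 3620 and 2383 to 3524 with the null virus. Of 9 acinar genes 2 were tested and 0 called, with sums of 212 to 516 and 182 to 400 with the PPARγ virus, against 138 to 513 and 136 to 437 with the null virus. All of these ranges overlapped. At most 1.53% of all tested probe sets were called in a contrast, so these counts of 0 say little about the cells.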
